A study of Mus musculus with 15 samples.

Results

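Tumor associated neutrophils (TAN) were set against splenic granulocytic suppressor cells of the myeloid lineage (G-MDSC) over all genes measured. The comparison held 8 of the 15 arrays of the series, chosen by their titles: 4 arrays of TAN and 4 of G-MDSC. TAN came from flank tumors of AB12, a murine mesothelioma line, and G-MDSC from the spleens of mice bearing the same tumor, all in BALB/c mice and all sorted as Ly6G+ cells after enrichment on CD11b beads. The other 7 arrays held naïve neutrophils (NN) from the marrow of mice without tumors, of the same strain. By the labels NN were also sorted on Ly6G, whereas the methods give a Percoll gradient for them. Their values are given here only as a range, but NN entered the fit and its estimate of the spread. RNA of 2 to 4 mice was pooled for an array. By the methods, TAN were taken from smaller tumors and sooner after injection than G-MDSC, so that tissue, tumor size and time cannot be told apart in what follows. Ages and sexes of the mice were not used here. The labels do not say whether arrays of a group shared a pool of mice, and p-values measure the spread between arrays.

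Neutrophils are short-lived granulocytes that leave the marrow with their granule proteins already made and with little further transcription of the granule genes. In tissue they sense chemokines, cytokines and microbial products, release granules and reactive oxygen, and turn on genes for chemokines of their own. Tumors in mice and people draw in neutrophils, and tumor-bearing mice also collect immature granulocytes in the spleen that can restrain T cells. The comparison asked which genes set the cells within the tumor apart from the splenic cells of tumor-bearing mice.

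Values are log2 signals after background correction and quantile normalization, so that a difference of 1 is a doubling of signal, and a difference is always TAN minus G-MDSC. A gene was called higher or lower where limma's adjusted p over 16317 kept probes lay under 0.05, and a gene with several probes is represented by the one of highest mean signal. Means are given with SD over 4 arrays. Signals of different genes come from different probes and are not compared with each other. Of 11074 genes, 4034 were higher in TAN (36.4%) and 2499 were lower (22.6%), 59% together. The median difference over all genes was 0.13. Where no TAN value overlapped a G-MDSC value, 2997 genes were called higher (27.1%) and 1735 lower (15.7%). Among the probes, 9598 of 16317 were called (58.8%), 5235 higher (32.1%) and 4363 lower. Over 1.7-fold lay 3584 genes (32.4%) and 5253 probes (32.2%). Of these probes 2639 were higher and 2614 lower, and more were lower than higher without background correction (2346 higher, 2396 lower), in the authors' table of normalized values (2482 higher, 2499 lower) and without TAN 1 (2478 higher, 2488 lower). Scaled to each array's median instead, 6131 of the called probes were higher and 3504 lower, with a median difference over probes of 0.21 in place of 0.05.

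TAN 3 and G-MDSC 1 stood apart from the other arrays of their groups. Over the kept probes, TAN 3 lay 110 log2 units (Euclidean distance) from the other TAN on average and 114 from the G-MDSC, whereas TAN 1, TAN 2 and TAN 4 lay 62.1 to 65 from the other TAN and 147 to 157 from the G-MDSC. For G-MDSC 1 this distance to its own group was 72.2, while the other G-MDSC lay 43.2 to 45 from theirs. In 72.5% of the genes called higher, TAN 3 was the TAN array nearest to the G-MDSC, and in 50.9% of those called lower. Without TAN 3 and G-MDSC 1, 4693 genes were higher (42.4%) and 2719 lower (24.6%), 66.9% together. With TAN 3 as the only TAN array, 2121 were higher (19.2%) and 1818 lower (16.4%), 35.6% together, the spread being taken from the other groups.

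Probes of 1 gene did not always move together. Of 2957 genes with several kept probes, 349 had probes called in both directions (11.8%), and 35 (1.18%) with TAN 3 as the only TAN array. The share of these genes with probes more than 4-fold apart, taken relative to the G-MDSC, was 20%, 19.2% and 14.8% in TAN 1, TAN 2 and TAN 4 and 3.48% in TAN 3, against 0.0338 to 1.83% within the G-MDSC and 1.25 to 1.69% in NN. The part of this measure in the results was not tested. The arrays also fell into a pair of background levels: the median signal of probes left out of the authors' table was 84.2 to 94.3 in TAN and 106 to 114 in G-MDSC, with 76.2 to 91.9 in NN 1 to NN 5 and 105 to 110 in NN 6 and NN 7. No level held both TAN and G-MDSC, so that they could be joined only through NN. With the level as a block, 2304 genes were higher (20.8%) and 1511 lower (13.6%).

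Both populations carried the RNA of neutrophils, at a lower mean level in TAN. The neutrophil marker list had a mean log2 signal of 12.83 to 13.30 in TAN and 13.81 to 13.92 in G-MDSC, and all 13 measured markers were above background on every TAN and every G-MDSC. S100a8 and S100a9, the subunits of calprotectin, had differences of 0.12 and 0.27 and were not called. Both lay near the highest log2 signal of any array, 16.01, where a probe has little room to differ. Csf3r, the receptor of the granulocyte growth factor G-CSF, fell by 2.18 on the log2 scale (standard error 0.30, limma adjusted p = 2.0e-05), and Cxcr2, the receptor through which neutrophils follow CXC chemokines, fell by 1.73. In all, 9 of the 13 were lower (69.2%, against 22.6% of all genes). Another 2 were higher, namely Il1r2, a decoy receptor of interleukin-1 (difference 0.81), and Clec4d, a C-type lectin (0.33). Neither was called for TAN 3 alone, and Clec4d was not called with the level as a block. In array data, fewer cells of a type and less RNA per cell cannot be told apart.

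Markers of macrophages and of the tumor itself were higher in TAN. Of 16 measured macrophage markers, 12 were higher (75%, against 36.4% of all genes) and none lower. Without TAN 3 and G-MDSC 1, 12 were higher and 3 lower, against 42.4% and 24.6% of all genes. Their mean was 10.72, 10.98, 12.04 and 11.39 in TAN 1 to TAN 4, against 9.19 to 9.49 in G-MDSC. TAN 3 had the highest mean. Trem2, a lipid-sensing receptor of macrophages, had log2 signals of 12.29, 12.41, 12.17 and 12.39 in TAN 1 to TAN 4, against 6.82, 7.52, 7.05 and 7.22 in G-MDSC 1 to G-MDSC 4. Ms4a7, a membrane protein of macrophages, had 11.08, 11.59, 12.20 and 11.48 in TAN 1 to TAN 4, against 6.75, 7.55, 7.43 and 7.58 in G-MDSC 1 to G-MDSC 4. C1qa, a chain of complement C1q, showed TAN 3 alone: it had 7.88, 8.07, 13.05 and 9.03 in TAN 1 to TAN 4, against 9.09, 9.38, 9.40 and 9.23 in G-MDSC 1 to G-MDSC 4, and was not called (0.23, limma adjusted p = 0.81), but was lower without TAN 3 and G-MDSC 1 (-1.01). C1qb, its partner chain, had 13.43 to 14.66 in TAN and 10.93 to 11.13 in G-MDSC without overlap.

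Of 8 measured markers of mesothelioma and epithelial cells, 6 were higher in TAN (75%, against 36.4% of all genes) and none lower. Their mean was 9.17, 9.02, 8.42 and 9.25 in TAN 1 to TAN 4, against 6.58 to 6.70 in G-MDSC. Here TAN 3 had the lowest mean. Krt8, a keratin of simple epithelia and mesothelium, had 11.57, 11.40, 10.83 and 11.73 in TAN 1 to TAN 4, against 6.21, 6.45, 6.5 and 6.49 in G-MDSC 1 to G-MDSC 4, and its partner Krt18 had 10.30, 9.94, 8.98 and 10.40 in TAN 1 to TAN 4, against 6.63, 6.08, 6.16 and 6.16 in G-MDSC 1 to G-MDSC 4. Msln, the mesothelial surface protein mesothelin, had 9.75, 9.18, 7.84 and 9.15 in TAN 1 to TAN 4, against 6.22, 6.12, 6.24 and 6.36 in G-MDSC 1 to G-MDSC 4. Msln was not above background in G-MDSC, and was at least 5.58-fold higher. All 3 genes separated the groups completely, and TAN 3 was the lowest TAN array in each. The part of tumor cell and macrophage RNA in the genes below was not tested.

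The means of lymphocyte markers set G-MDSC 1 apart. The mean of 8 B cell markers was 6.93 to 7.29 in TAN, against 10.24 in G-MDSC 1 and 7.34 to 7.5 in G-MDSC 2 to G-MDSC 4, and that of 11 T and NK cell markers was 7.24 to 7.69 in TAN, against 9.38 in G-MDSC 1 and 7.10 to 7.15 in G-MDSC 2 to G-MDSC 4. Cd79a, a chain of the B cell receptor, had 7.28, 6.63, 6.58 and 6.63 in TAN 1 to TAN 4, against 12.57, 7.66, 7.69 and 8.35 in G-MDSC 1 to G-MDSC 4. Its difference was -2.29, and -1.06 without TAN 3 and G-MDSC 1. With TAN 3 alone or the level as a block no call was made. Cd3d, a T cell marker, did not set G-MDSC 1 apart. It had 11.81, 11.36, 10.09 and 11.01 in TAN 1 to TAN 4, against 11.96, 12.16, 12.16 and 11.85 in G-MDSC 1 to G-MDSC 4. Of the 11 T and NK cell markers, 1 was higher in TAN (9.09%) and 2 lower (18.2%), against 36.4% and 22.6% of all genes. Fibroblast and matrix markers had means of 7.29 to 7.60 in TAN and 6.25 to 6.97 in G-MDSC. Of these 8 markers, 5 were higher in TAN (62.5%, against 36.4% of all genes). Among 9 dendritic cell markers, 1 was lower (11.1%, against 22.6% of all genes) and none higher.

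**Figure D1:**
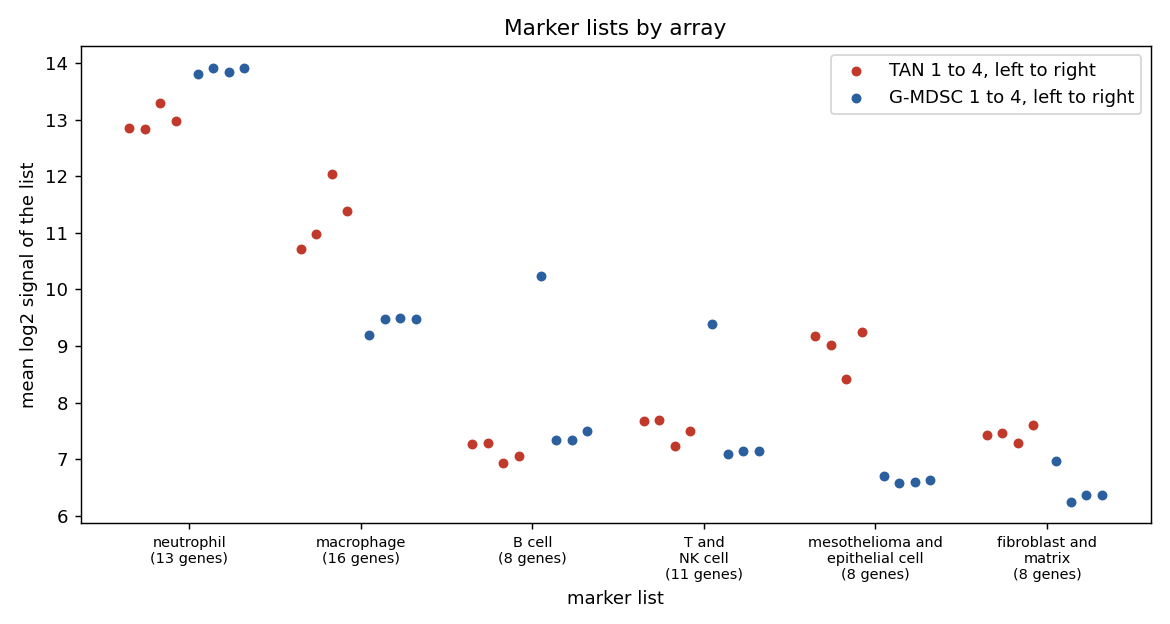
Mean log2 signal of 6 lists of marker genes on each array, TAN in red left of G-MDSC in blue, arrays 1 to 4 running left to right. Neutrophil markers averaged 12.83 to 13.30 in TAN and 13.81 to 13.92 in G-MDSC, TAN 3 stood highest for macrophage markers (12.04) and lowest among TAN for mesothelioma and epithelial markers (8.42), and G-MDSC 1 stood alone for B cell (10.24) and T and NK cell markers (9.38).

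The 15 genes with the largest increase were taken from genes without overlap or an opposite call of another probe. They also had to be above background on all TAN and most G-MDSC. They were Dab2, Mmp13, Hilpda, Pf4, Rnase2a, Cxcl16, Trem2, Mmp14, Ctsk, Slamf9, Cxcl9, Rab15, Wfdc2, Pdpn and Lmna. Ccl8 (7.58), Ccl12 (7.45), Arg1 (6.85) and Ccl7 (6.83) rose further but were above background on fewer G-MDSC. Dab2, an adaptor of clathrin-coated pits, had 13.09, 13.53, 13.33 and 13.73 in TAN 1 to TAN 4, against 6.19, 6.76, 6.78 and 7.25 in G-MDSC 1 to G-MDSC 4, a difference of 6.67 (standard error 0.20, limma adjusted p = 1.1e-12), or 102-fold. Mmp13, a collagenase, had 12.65, 13.43, 13.02 and 13.40 in TAN 1 to TAN 4, against 6.99, 6.92, 6.91 and 7.43 in G-MDSC 1 to G-MDSC 4, a difference of 6.06 (standard error 0.20). The 4 TAN lay close together in both genes, far above every G-MDSC. NN had 6.76 to 7.35 for Dab2 and 7.07 to 7.87 for Mmp13, far below the TAN.

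Slamf9, a receptor of the SLAM family, had 12.54 ± 0.22 in TAN and 7.53 ± 0.15 in G-MDSC (SD, n = 4 each), and Rnase2a, a ribonuclease of the eosinophil-associated family, had 12.15 ± 0.26 in TAN and 6.88 ± 0.03 in G-MDSC. That family holds near-identical copies that a probe may not tell apart. Rab15, a small GTPase of endosomes, had 11.73 ± 0.66 in TAN and 6.85 ± 0.14 in G-MDSC. Wfdc2, a secreted protein known in people as a marker of ovarian carcinoma, had 11.74, 11.45, 10.28 and 11.41 in TAN 1 to TAN 4, against 6.59, 6.65, 6.60 and 6.63 in G-MDSC 1 to G-MDSC 4. Pdpn, podoplanin of mesothelial and lymphatic cells, had 11.93, 12.38, 11.23 and 12.50 in TAN 1 to TAN 4, against 7.55, 7.52, 7.41 and 7.25 in G-MDSC 1 to G-MDSC 4. In Rab15, Wfdc2 and Pdpn, TAN 3 was the lowest TAN array, as it was for the keratins. Lmna, the gene of lamins A and C, had 12.56, 12.61, 11.51 and 12.71 in TAN 1 to TAN 4, against 9.61, 7.23, 7.27 and 7.09 in G-MDSC 1 to G-MDSC 4, with G-MDSC 1 above the other G-MDSC.

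The 15 genes with the largest decrease were taken with the same limits, above background on all G-MDSC and most TAN. They were Ngp, Lcp1, Camp, Srsf5, Il13ra1, AB124611, Msn, Gm8909, H2az1, Pxn, Rbm3, H2-Q8, Vim, Mapk14 and Olfm4. Ltb (-5.45), Il17ra (-4.53) and Ifngr1 (-4.09) fell further than Olfm4 (-3.96) but were above background on only 2 TAN. Ngp, a protein of the specific granules, had 6.40, 6.65, 11.36 and 7.10 in TAN 1 to TAN 4, against 14.85, 14.77, 14.71 and 15.06 in G-MDSC 1 to G-MDSC 4, a difference of -6.97 (standard error 0.73, limma adjusted p = 1.4e-06) and of -3.49 for TAN 3 alone. Lcp1, the actin-bundling protein plastin of leukocytes, had 7.46, 6.95, 11.93 and 7.14 in TAN 1 to TAN 4, against 12.79, 14.12, 14.21 and 14 in G-MDSC 1 to G-MDSC 4. H2az1, the histone variant H2A.Z, had 6.33, 6.77, 12.13 and 6.89 in TAN 1 to TAN 4, against 12.19, 12.47, 12.47 and 12.43 in G-MDSC 1 to G-MDSC 4, so that TAN 3 lay just under the G-MDSC while the other TAN were far below them. Vim, the intermediate filament vimentin, had 6.89, 6.99, 11.97 and 7.83 in TAN 1 to TAN 4, against 12.26, 12.61, 12.57 and 12.90 in G-MDSC 1 to G-MDSC 4.

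Camp, the cathelicidin of specific granules, was low in all 4 TAN. It had 9.62, 9.34, 10.45 and 9.34 in TAN 1 to TAN 4, against 14.56, 14.20, 13.89 and 14.32 in G-MDSC 1 to G-MDSC 4, a difference of -4.55 (standard error 0.20, limma adjusted p = 1.3e-10), and NN had 15.45 to 15.73. Olfm4, olfactomedin 4 of specific granules, had 6.89, 7.32, 8.92 and 7.06 in TAN 1 to TAN 4, against 10.14, 11.92, 12.20 and 11.76 in G-MDSC 1 to G-MDSC 4. Msn, moesin, which links actin to the membrane, had 7.00, 7.35, 9.26 and 7.29 in TAN 1 to TAN 4, against 10.39, 12.82, 13.18 and 12.53 in G-MDSC 1 to G-MDSC 4. Srsf5, a splicing factor, had 7.75 to 10.20 in TAN and 12.17 to 13.57 in G-MDSC, and Pxn, the focal adhesion adaptor paxillin, had 6.59 to 9.72 in TAN and 11.14 to 12.20 in G-MDSC, both without overlap. Gm8909 and H2-Q8 belong to the class I histocompatibility genes, whose close copies a probe may not tell apart. Rbm3, an RNA-binding protein induced by cold, had a difference of -4.31, and -1.21 for TAN 3 alone.

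**Figure D2:**
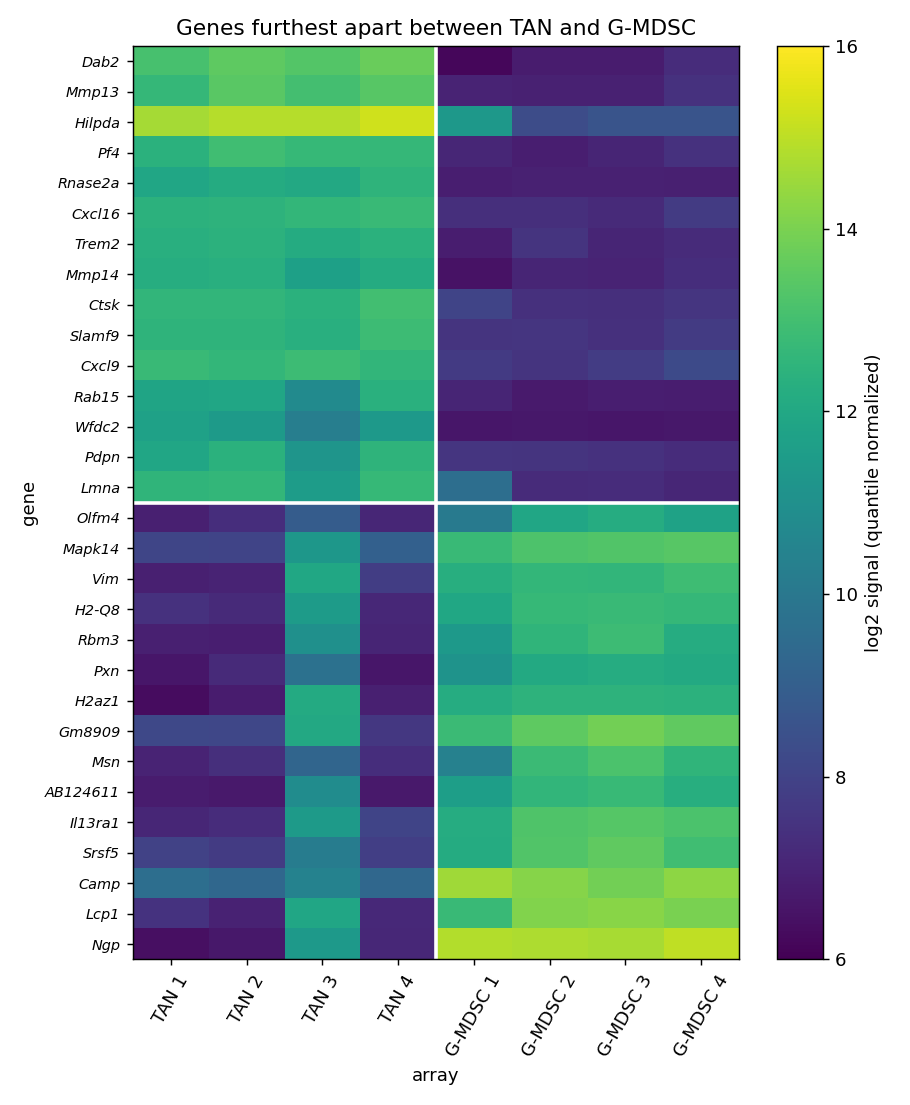
Log2 signal by array, with TAN left of G-MDSC and a white line between them. Genes are the 15 furthest above and the 15 furthest below G-MDSC in TAN within the limits of the text. These ask for signals above background on most arrays of both groups. The 4 TAN lie close together for Dab2 (13.09 to 13.73), whereas TAN 3 is closer to the G-MDSC than the other TAN for H2az1 (12.13 against 12.19 to 12.47).

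Some genes were below background in all arrays of a group and gave only a bound. Genes counted here were called, without overlap and with no other probe called the other way. Of the 11074 genes, 405 such genes were below background on every G-MDSC and above it on every TAN. Another 133 were so the other way. Here the fold sets the mean of the higher group against the lowest signal above background. Ch25h, which makes 25-hydroxycholesterol, had 12.43, 12.57, 12.80 and 12.56 in TAN 1 to TAN 4, against 6.45, 5.98, 6.21 and 6.37 in G-MDSC 1 to G-MDSC 4, at least 68.2-fold higher in TAN. Fcrls, a scavenger receptor-like protein of macrophages, was at least 23.1-fold higher, Folr2, a folate receptor of macrophages, at least 18-fold, and Eno2, a glycolytic enolase, at least 17.4-fold. Folr2 was highest in TAN 3 (11.79, against 9.82 to 10.81 in the other TAN), and Eno2 was lowest there (9.76).

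Car4, a carbonic anhydrase, was at least 11-fold higher, Prl, the hormone prolactin, at least 10.8-fold, and Slc6a8, the creatine transporter, at least 7.87-fold. Arhgap45 had the largest bound, at least 139-fold, but moved with the background level: it had 12.95 to 13.95 in TAN and 5.66 to 5.67 in G-MDSC, NN ranged from 5.66 to 14.01, and its difference was -0.31 with the level as a block. On the other side, Gp2, a membrane glycoprotein known from the pancreas and intestine, had 6.36, 6.30, 6.38 and 6.42 in TAN 1 to TAN 4, against 9.27, 9.72, 9.53 and 10.62 in G-MDSC 1 to G-MDSC 4, at least 9.57-fold lower in TAN. NN had 6.11 to 6.40, near the TAN. Slc28a2, a nucleoside transporter, was at least 8.38-fold lower, Ctsa, a lysosomal carboxypeptidase, at least 6.61-fold, and Hpgd, which inactivates prostaglandins, at least 3.98-fold. Mzb1 and Pou2af1, genes of B and plasma cells, were at least 4.37-fold and 3.44-fold lower, and both were highest in G-MDSC 1 (11.53 and 11.05). Without TAN 3 and G-MDSC 1 their differences were -1.34 and -1.10, and neither was called for TAN 3 alone or with the level as a block.

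Chemokine genes were among those far apart. The 4 measured genes listed as monocyte-attracting CC chemokines, Ccl2, Ccl7, Ccl8 and Ccl12, were all higher in TAN without overlap. Their median difference was 7.14, against 0.13 over all genes. The median was 7.27 for TAN 3 alone and 7.33 once the background level was blocked. Ccl8 had 13.57, 13.97, 14.73 and 13.77 in TAN 1 to TAN 4, against 6.35, 6.48, 6.10 and 6.81 in G-MDSC 1 to G-MDSC 4, a difference of 7.58 (standard error 0.21, limma adjusted p = 3.2e-13). Ccl12 had 13.83, 14.08, 13.97 and 14.16 in TAN 1 to TAN 4, against 6.31, 6.25, 6.56 and 7.13 in G-MDSC 1 to G-MDSC 4, and Ccl7 had 12.98, 13.48, 13.61 and 13.15 in TAN 1 to TAN 4, against 6.47, 6.32, 6.5 and 6.61 in G-MDSC 1 to G-MDSC 4. Ccl8 and Ccl7 were above background on 1 of 4 G-MDSC and Ccl12 and Ccl2 on 2, so that the differences depend on the level of background. Ccl2, the main monocyte attractant, had a smaller difference (3.12), with 8.91, 9.46, 11.57 and 9.74 in TAN 1 to TAN 4, against 7.59, 6.43, 6.33 and 6.84 in G-MDSC 1 to G-MDSC 4, highest in TAN 3. In the RefSeq annotation of GRCm38.p6, Ccl2, Ccl7, Ccl11, Ccl12, Ccl8 and Ccl1 follow each other as neighboring protein-coding genes on chromosome 11. Ccl11, the eosinophil attractant eotaxin in the midst of this run, was not above background in G-MDSC and was at least 1.09-fold higher, with 6.53 to 6.78 in TAN and 6.29 to 6.44 in G-MDSC, and was not called for TAN 3 alone or with the level as a block.

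Of 10 other CC chemokines, 6 were higher (60%, against 36.4% of all genes) and 1 lower (10%, against 22.6%). Ccl17, a ligand of CCR4 on T cells, had 11.28, 11.16, 9.39 and 11.42 in TAN 1 to TAN 4, against 6.33, 6.68, 6.51 and 6.16 in G-MDSC 1 to G-MDSC 4, with TAN 3 below the other TAN. Ccl4, a chemokine of activated myeloid cells, had 15.91, 15.82, 15.95 and 15.88 in TAN 1 to TAN 4, against 14.75, 12.24, 12.41 and 12.58 in G-MDSC 1 to G-MDSC 4, with G-MDSC 1 nearest to TAN. Ccl9, an attractant of myeloid cells, had 13.76 ± 0.15 in TAN and 11.52 ± 0.29 in G-MDSC. Ccl3, a close relative of Ccl4, was high in both and not called (13.96, 13.72, 15.89 and 14.83 in TAN 1 to TAN 4, against 14.91, 12.78, 13.41 and 13.45 in G-MDSC 1 to G-MDSC 4, limma adjusted p = 0.1). Ccl5, which draws T cells, was not called either (10.39 to 11.61 in TAN and 9.74 to 11.49 in G-MDSC). Without TAN 3 and G-MDSC 1 both were called higher, Ccl3 by 0.96 and Ccl5 by 0.94. For TAN 3 alone the differences of Ccl3 and Ccl5 were 2.25 and -0.18. Neither was called with the level as a block (0.66 and 0.44). Ccl6 alone was lower, with 8.17, 8.51, 11.60 and 9.78 in TAN 1 to TAN 4, against 12.08, 12.98, 12.92 and 12.52 in G-MDSC 1 to G-MDSC 4, a difference of -3.11.

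Of 13 CXC and other chemokines, 9 were higher (69.2%, against 36.4% of all genes) and none lower. Pf4, the platelet chemokine CXCL4, had 12.38, 12.94, 12.69 and 12.65 in TAN 1 to TAN 4, against 7.09, 6.84, 7.02 and 7.44 in G-MDSC 1 to G-MDSC 4, with NN at 12.24 to 13.36. Cxcl16, a ligand of CXCR6 on T cells, had 12.44, 12.48, 12.61 and 12.79 in TAN 1 to TAN 4, against 7.34, 7.36, 7.18 and 7.75 in G-MDSC 1 to G-MDSC 4, and Cxcl9, an interferon-induced ligand of CXCR3, had 12.76, 12.64, 12.86 and 12.57 in TAN 1 to TAN 4, against 7.69, 7.52, 7.76 and 8.25 in G-MDSC 1 to G-MDSC 4. In these 3 genes the 4 TAN lay close together. Cxcl1, which draws neutrophils through CXCR2, had 13.89, 13.83, 13.89 and 13.60 in TAN 1 to TAN 4, against 12.04, 7.76, 8.55 and 8.86 in G-MDSC 1 to G-MDSC 4, with G-MDSC 1 far above the other G-MDSC. Cxcl2, another CXCR2 ligand, was high in both and higher in TAN by 1.51, but not called with the level as a block (1.04). Cxcl10, another CXCR3 ligand, had 8.43, 8.72, 12.54 and 8.52 in TAN 1 to TAN 4, against 9.43, 8.33, 8.93 and 9.36 in G-MDSC 1 to G-MDSC 4, high in TAN 3 alone, and was not called.

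**Figure D3:**
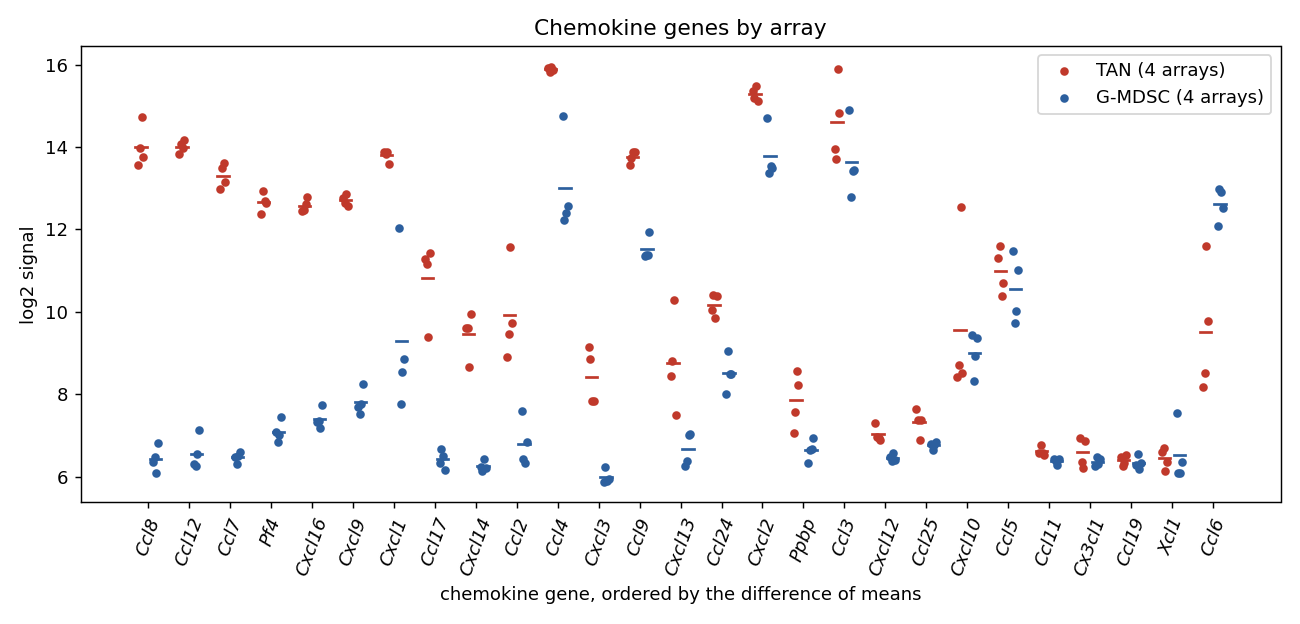
Log2 signal of each measured chemokine gene on the 4 TAN (red) and the 4 G-MDSC (blue) arrays, ordered by the difference of group means, which bars mark. Ccl8, Ccl12 and Ccl7 lie between 12.98 and 14.73 in TAN and at or below 7.13 in G-MDSC, while Ccl3, Ccl5 and Cxcl10 overlap and Ccl6 is lower in TAN.

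Of 13 receptors for chemokines and other attractants, 2 were higher (15.4%, against 36.4% of all genes) and 3 lower (23.1%, against 22.6%). Their median was -0.19. C5ar1, the receptor of complement C5a, had 7.57, 7.53, 6.56 and 7.04 in TAN 1 to TAN 4, against 8.17, 10.51, 10.91 and 10.35 in G-MDSC 1 to G-MDSC 4, a difference of -2.81, and of -1.65 with the level as a block, where it was not called. Ccr3, a receptor of eotaxins, fell by 1.16, and Cx3cr1, the fractalkine receptor of monocytes, was higher by 2.10. Fpr2, a formyl peptide receptor, was not called (0.08). Of 26 cytokines, 15 were higher (57.7%, against 36.4% of all genes) and 4 lower (15.4%, against 22.6%). With the level as a block 11 were higher and 4 lower, against 20.8% and 13.6% of all genes. Il1a, interleukin-1 alpha, had 10.93, 10.70, 12.03 and 10.02 in TAN 1 to TAN 4, against 6.89, 6.55, 6.43 and 6.67 in G-MDSC 1 to G-MDSC 4, a difference of 4.28 (standard error 0.28). Il1b, its relative, was near the upper end of the scale in both groups and not called (15.71 to 15.81 in TAN and 15.65 to 15.81 in G-MDSC). Il6 was higher by 1.38, Il10 by 1.27 and Il12a by 1.28. Tnf had 10.63, 10.80, 13.97 and 12.76 in TAN 1 to TAN 4, against 12.67, 10.97, 12.11 and 11.44 in G-MDSC 1 to G-MDSC 4 and was not called. Ltb, lymphotoxin beta, had 6.36, 6.55, 12.38 and 6.59 in TAN 1 to TAN 4, against 13.10, 13.33, 13.62 and 13.61 in G-MDSC 1 to G-MDSC 4, with TAN 3 just under the G-MDSC and the other TAN far below.

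Of 24 cytokine receptors, 11 were lower in TAN (45.8%, against 22.6% of all genes) and 4 higher. Il17ra, the receptor of interleukin-17A, had 6.68, 6.5, 8.77 and 6.49 in TAN 1 to TAN 4, against 10.71, 11.95, 12.01 and 11.91 in G-MDSC 1 to G-MDSC 4. Ifngr1, the interferon-gamma receptor, had 6.44, 6.48, 10.07 and 6.82 in TAN 1 to TAN 4, against 11, 11.76, 11.80 and 11.59 in G-MDSC 1 to G-MDSC 4. Il13ra1, a chain of the interleukin-13 receptor, had 7.06, 7.26, 11.43 and 8.04 in TAN 1 to TAN 4, against 12.19, 13.25, 13.36 and 13.15 in G-MDSC 1 to G-MDSC 4. In these 3 genes TAN 3 was the highest TAN array. Il6ra fell by 2.81 and by 3.01 with TAN 3 alone. Il10ra was higher by 1.05, and was not called with the level as a block (0.60). Il17rc was not above background in G-MDSC, and was at least 2.01-fold higher.

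Genes of specific and gelatinase granules were mostly lower in TAN. Of 20 measured genes of specific and gelatinase granules, 15 were lower (75%, against 22.6% of all genes) and 2 higher, with a median of -2.09, and of -1.25 for TAN 3 alone. Beside Ngp, Camp and Olfm4 above, Ltf, lactoferrin, had 11.87, 11.57, 12.64 and 11.85 in TAN 1 to TAN 4, against 15.91, 15.39, 15.16 and 15.85 in G-MDSC 1 to G-MDSC 4, and Hp, haptoglobin, had 12.07, 12.35, 14.81 and 12.91 in TAN 1 to TAN 4, against 15.41, 15.68, 15.60 and 15.73 in G-MDSC 1 to G-MDSC 4. Lcn2, the iron-scavenging lipocalin, fell by 1.21, a lower limit, as the G-MDSC lay at the top of the scale (15.93 to 15.97). Mmp8, the neutrophil collagenase, fell by 2.05. Mmp9, gelatinase B, fell by 0.29 with overlap, and was not called with the level as a block. Arg1, arginase, which breaks down arginine and is kept in granules in human neutrophils, went the other way and had 12.30, 12.47, 14.06 and 13.33 in TAN 1 to TAN 4, against 6.11, 5.92, 6.18 and 6.56 in G-MDSC 1 to G-MDSC 4, a difference of 6.85 (standard error 0.28, limma adjusted p = 4.2e-11), highest in TAN 3. Of 6 azurophil granule genes, 1 was higher (16.7%, against 36.4% of all genes) and 2 lower (33.3%, against 22.6%). Elane, neutrophil elastase, had 6.55 to 6.99 in TAN and 6.89 to 7.98 in G-MDSC and was not called. Mpo, myeloperoxidase, fell by 0.78, and was not called without TAN 3 and G-MDSC 1 (-0.44), for TAN 3 alone or with the level as a block. G-MDSC 1 had 8.89 and the other G-MDSC 7.36 to 7.76.

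Most genes of the oxidase that makes reactive oxygen and of the actin cytoskeleton were also lower. Of 7 genes of the NADPH oxidase, 5 were lower (71.4%, against 22.6% of all genes) and none higher. The median was -1.37, and -0.36 with TAN 3 alone. Rac2, the GTPase that activates the enzyme in neutrophils, had 8.43, 8.45, 13.17 and 10.08 in TAN 1 to TAN 4, against 13.67, 13.92, 14.04 and 14.09 in G-MDSC 1 to G-MDSC 4. Ncf1, the cytosolic subunit p47phox, had 8.38, 8.47, 10.06 and 9.27 in TAN 1 to TAN 4, against 10.27, 10.45, 10.57 and 10.36 in G-MDSC 1 to G-MDSC 4. Cybb, the catalytic subunit, had 6.30 to 6.57 in TAN and 6.41 to 6.71 in G-MDSC and was not called. Of 43 genes of the actin cytoskeleton, 26 were lower (60.5%, against 22.6% of all genes) and 5 higher, with 20 of the 26 free of overlap. With the level as a block 19 were lower, against 13.6% of all genes. Tln1, talin, was not above background in TAN and at least 2.74-fold lower, but was not called with the level as a block (-1.08). Vasp, which extends filaments, fell by 1.21, and Coro1a, coronin of leukocytes, by 0.69. Capg, a capping protein of macrophages, was higher by 1.71. Of 28 integrins and adhesion genes, 11 were lower (39.3%, against 22.6% of all genes) and 6 higher (21.4%, against 36.4%). Itgb2, the beta-2 integrin chain CD18, had 6.62, 6.66, 9.85 and 7.16 in TAN 1 to TAN 4, against 10.32, 11.24, 11.26 and 11.14 in G-MDSC 1 to G-MDSC 4, and Itgam, its partner CD11b, a marker of the enrichment, had 7.03, 7.03, 7.31 and 7.05 in TAN 1 to TAN 4, against 8.26, 9.87, 9.57 and 9.28 in G-MDSC 1 to G-MDSC 4. The difference of Itgam was -2.14, and -1.05 with the level as a block, where it was not called. Itgb5, an integrin of tissue cells, was higher by 2.10.

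Of 26 genes of matrix proteases and their inhibitors, 15 were higher (57.7%, against 36.4% of all genes), all without overlap, and 4 were lower, the proteases Mmp8, Mmp9, Adam8 and Adam19. Mmp14, the membrane-bound activator of other matrix proteases, had 12.23, 12.30, 11.70 and 12.16 in TAN 1 to TAN 4, against 6.48, 7.04, 7.00 and 7.29 in G-MDSC 1 to G-MDSC 4. Mmp12, the macrophage elastase, had 12.39, 12.74, 12.20 and 12.82 in TAN 1 to TAN 4, against 7.28, 8.22, 8.12 and 8.67 in G-MDSC 1 to G-MDSC 4. Timp1, an inhibitor of these enzymes, had 10.79, 10.43, 9.76 and 10.39 in TAN 1 to TAN 4, against 6.56, 6.16, 6.29 and 6.48 in G-MDSC 1 to G-MDSC 4. Plau, urokinase, was highest in TAN 3, with 11.25, 11.28, 13.01 and 11.74 in TAN 1 to TAN 4, against 7.60, 8.42, 8.45 and 8.23 in G-MDSC 1 to G-MDSC 4. The median of the list was 0.74, and 1.02 for TAN 3 alone.

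Genes of antigen presentation split. Of 13 genes of class II presentation, 7 were higher without overlap (53.8%, against 27.1% of all genes) and 3 lower (23.1%, against 22.6%). With the level as a block 4 were higher and 2 lower, against 20.8% and 13.6% of all genes. H2-DMa and H2-DMb1, which load peptide onto class II, were higher by 2.09 and 1.71. H2-DMb2, their relative, went the other way and fell by 2.72, with 6.14 to 8.39 in TAN and 9.19 to 9.71 in G-MDSC. H2-Ab1, a class II chain, was higher by 1.25, with 1 other probe called lower, and was not called with the level as a block (0.70). Cd74, the invariant chain, was not called (14.48 to 15.88 in TAN and 14.51 to 15.14 in G-MDSC). H2-Oa, which restrains loading in B cells, had 6.39 to 7.58 in TAN and 8.65 to 9.75 in G-MDSC and fell by 2.43. Of 17 genes of class I loading, 7 were higher (41.2%, against 36.4% of all genes) and 5 lower (29.4%, against 22.6%). The median was -0.15, and 0.82 with TAN 3 as the only TAN array. With the level as a block 4 were higher and 1 lower, against 20.8% and 13.6% of all genes. Psmb10, a subunit of the immunoproteasome, had 13.23, 13.04, 12.78 and 12.56 in TAN 1 to TAN 4, against 10.61, 10.19, 10.10 and 10.50 in G-MDSC 1 to G-MDSC 4. Psme2, a proteasome activator subunit, had 6.13, 6.41, 9.98 and 6.17 in TAN 1 to TAN 4, against 8.35, 8.76, 8.76 and 9 in G-MDSC 1 to G-MDSC 4, below G-MDSC in 3 TAN and above them in TAN 3 (difference 1.26 for TAN 3 alone), and not called with the level as a block.

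Most ligands that act on T cells were higher. Of 10 costimulatory and inhibitory ligands, 7 were higher (70%, against 36.4% of all genes) and 1 lower, with a median of 1.38. Cd274, the inhibitory ligand PD-L1, had 14.09, 14.13, 14.19 and 13.98 in TAN 1 to TAN 4, against 11.93, 10.86, 10.95 and 11.30 in G-MDSC 1 to G-MDSC 4, a difference of 2.84 (standard error 0.18, limma adjusted p = 7.1e-09). Pdcd1lg2, PD-L2, had 8.55, 8.52, 8.20 and 8.74 in TAN 1 to TAN 4, against 6.56, 6.27, 6.61 and 6.53 in G-MDSC 1 to G-MDSC 4, and Cd276, B7-H3, was higher by 2.14. Cd40, which T cells engage to activate their partner, was higher by 1.80, Cd80 by 0.96 and Cd86 by 0.51, with overlap and another probe called lower for Cd86, which was not called for TAN 3 alone. Lgals9, galectin-9, had 7.71, 8.09, 12.33 and 9.26 in TAN 1 to TAN 4, against 11.43, 11.58, 11.91 and 12.15 in G-MDSC 1 to G-MDSC 4, with TAN 3 above every G-MDSC and the other TAN below. It was not called for TAN 3 alone or with the level as a block.

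Of 9 Fc receptors, 4 were higher (44.4%, against 36.4% of all genes) and 2 lower (22.2%, against 22.6%). Fcgr1, the high-affinity receptor of immunoglobulin G, had 10.66, 10.86, 10.56 and 10.62 in TAN 1 to TAN 4, against 7.19, 8.56, 7.94 and 8.74 in G-MDSC 1 to G-MDSC 4. Fcgrt, the neonatal Fc receptor, was higher by 1.90, but not called with the level as a block (0.93). Fcer2a, the low-affinity immunoglobulin E receptor of B cells, fell by 1.07, and had a difference of -0.31 without TAN 3 and G-MDSC 1. It was not called there, for TAN 3 alone or with the level as a block. Of 16 complement genes, 9 were higher without overlap, as were 27.1% of all genes, and 3 lower. With the level as a block 6 were higher and none lower, against 20.8% and 13.6% of all genes. C4b, component C4, had 10.81, 10.62, 11.25 and 10.46 in TAN 1 to TAN 4, against 7.28, 7.07, 7.13 and 7.34 in G-MDSC 1 to G-MDSC 4, and Cfb, factor B, had 10.39, 10.69, 9.66 and 10.32 in TAN 1 to TAN 4, against 6.92, 7.28, 7.05 and 7.41 in G-MDSC 1 to G-MDSC 4. Vsig4, a complement receptor of macrophages, was higher by 2.73. Cd55, which dissolves convertases, fell by 0.96, and was not called for TAN 3 alone or with the level as a block.

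Sensing and signaling genes moved in both directions. Of 19 toll-like receptors and adaptors, 5 were higher (26.3%, against 36.4% of all genes) and 6 lower (31.6%, against 22.6%). Cd14, the co-receptor for lipopolysaccharide, had 15.22, 15.20, 15.81 and 15.69 in TAN 1 to TAN 4, against 14.16, 13.04, 13.13 and 13.36 in G-MDSC 1 to G-MDSC 4, while Tlr4 (0.45) and Tlr2 (-0.38) were not called. For Tlr4 all TAN (11.23 to 12.00) lay above all G-MDSC (10.64 to 11.16), and it was called higher with the level as a block (1.06). Its difference was 0.99 for TAN 3 alone, and 0.15 without TAN 3 and G-MDSC 1, where it was not called. Tlr13, a sensor of bacterial RNA in mice, fell by 2.67. Of 19 genes of NF-kB and its feedback, 8 were higher (42.1%, against 36.4% of all genes) and 3 lower (15.8%, against 22.6%). Sod2, mitochondrial superoxide dismutase, was higher by 2.08, and Tnfaip3, the inhibitor A20, by 1.26 with overlap and not called with the level as a block. Nfkbia, the inhibitor of NF-kB alpha, had 11.90, 12.40, 15.60 and 13.42 in TAN 1 to TAN 4, against 15.08, 14.53, 14.99 and 14.69 in G-MDSC 1 to G-MDSC 4, in which TAN 3 lay above every G-MDSC. It was not called for TAN 3 alone or with the level as a block.

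Of 24 immediate early factors, 6 were higher and 6 lower (25% each, against 36.4% and 22.6% of all genes). Nr4a3, an orphan nuclear receptor, had 11.08, 10.57, 9.04 and 10.38 in TAN 1 to TAN 4, against 6.69, 6.37, 6.03 and 6.21 in G-MDSC 1 to G-MDSC 4. Egr2 was higher by 1.78 and Atf3 by 1.81, the last not called for TAN 3 alone or with the level as a block. Junb fell by 1.46, a lower limit, as the G-MDSC lay at the top of the scale (15.81 to 16.01). Jund fell by 1.55, and was not called for TAN 3 alone. Of 22 MAP kinases and phosphatases, 6 were higher (27.3%, against 36.4% of all genes) and 7 lower (31.8%, against 22.6%). Dusp4, a phosphatase that turns off MAP kinases, had 10.12, 10.09, 9.77 and 10.42 in TAN 1 to TAN 4, against 7.00, 6.24, 6.37 and 6.23 in G-MDSC 1 to G-MDSC 4, and Spred1, an inhibitor of the Ras pathway, was higher by 2.62. Mapk14, the p38 alpha kinase, had 8.10, 8.06, 11.30 and 9.07 in TAN 1 to TAN 4, against 12.78, 13.21, 13.27 and 13.39 in G-MDSC 1 to G-MDSC 4. Of 17 JAK-STAT and SOCS genes, 5 were higher (29.4%, against 36.4% of all genes) and 9 lower (52.9%, against 22.6%). With the level as a block 3 of the 17 were higher and 3 lower, against 20.8% and 13.6% of all genes. Cish, a feedback inhibitor induced by STAT5, had 13.35, 13.42, 12.61 and 13.22 in TAN 1 to TAN 4, against 9.68, 8.24, 8.40 and 8.54 in G-MDSC 1 to G-MDSC 4, a difference of 4.44, while Stat5a fell by 1.76. Socs2, another feedback inhibitor, was higher by 1.57.

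Of 31 interferon-stimulated genes, 15 were higher (48.4%, against 36.4% of all genes) and 6 lower (19.4%, against 22.6%). The median was 0.49 over all TAN, and 0.91 with TAN 3 as the only TAN array. Gbp5, a guanylate-binding protein induced by interferon-gamma, had 10.14, 10.20, 10.73 and 8.91 in TAN 1 to TAN 4, against 7.65, 7.49, 7.72 and 7.93 in G-MDSC 1 to G-MDSC 4, and Mx2, an antiviral GTPase, had 10.26, 10.47, 9.91 and 9.52 in TAN 1 to TAN 4, against 8.17, 7.32, 7.38 and 8.39 in G-MDSC 1 to G-MDSC 4. Bst2, tetherin, was higher by 1.83, and Irf8, a transcription factor of the monocyte lineage, by 1.40. Oas3, which makes the activator of ribonuclease L, had 7.46, 7.34, 10.88 and 7.94 in TAN 1 to TAN 4, against 11.28, 10.54, 10.56 and 11.82 in G-MDSC 1 to G-MDSC 4, with TAN 3 among the G-MDSC.

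Most genes induced by low oxygen were higher. Of 27 genes of hypoxia and angiogenesis, 19 were higher (70.4%, against 36.4% of all genes) and 4 lower, with a median of 0.92, 0.97 for TAN 3 alone and 1.05 once the background level was blocked. Hilpda, a lipid droplet protein, had 14.66, 14.89, 14.90 and 15.26 in TAN 1 to TAN 4, against 11.32, 8.32, 8.61 and 8.59 in G-MDSC 1 to G-MDSC 4, a difference of 5.71 (standard error 0.47, limma adjusted p = 1.0e-07), and in G-MDSC 1 it lay well above the other G-MDSC. Egln3, an oxygen-sensing prolyl hydroxylase, had 12.79, 13.08, 12.49 and 13.00 in TAN 1 to TAN 4, against 9.38, 9.53, 9.49 and 9.59 in G-MDSC 1 to G-MDSC 4. P4ha1, a prolyl hydroxylase of collagen, had 8.75 to 9.39 in TAN and 6.36 to 7.00 in G-MDSC, and Vegfa, the vascular growth factor, was higher by 1.34. Hif1a, the oxygen-regulated subunit itself, fell by 1.39 with overlap, and was not called for TAN 3 alone or with the level as a block (-0.38).

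The letters ACGTG, a form of the core to which hypoxia-inducible factors bind, were searched on both strands in the 250 bases before each gene's start. Other forms of the core were neither searched nor marked. The windows before the 3 genes of this list with the largest differences, Hilpda, Il1a and Egln3, are shown with these letters in capitals. They come from the RefSeq promoter table of GRCm38.p6, chr6:29272376-29272625 on the plus strand for the start further downstream of Hilpda, chr2:129309973-129310222 on the minus strand for Il1a and chr12:54203875-54204124 on the minus strand for Egln3.
Hilpda: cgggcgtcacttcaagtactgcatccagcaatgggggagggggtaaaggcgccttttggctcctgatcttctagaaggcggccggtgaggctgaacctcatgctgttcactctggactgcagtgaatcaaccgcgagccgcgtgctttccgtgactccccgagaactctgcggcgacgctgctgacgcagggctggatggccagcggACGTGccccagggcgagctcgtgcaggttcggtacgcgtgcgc
Il1a: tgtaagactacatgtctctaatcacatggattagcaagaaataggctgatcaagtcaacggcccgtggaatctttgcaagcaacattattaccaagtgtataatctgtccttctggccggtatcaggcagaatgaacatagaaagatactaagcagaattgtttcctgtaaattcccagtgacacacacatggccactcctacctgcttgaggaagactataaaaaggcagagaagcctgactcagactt
Egln3: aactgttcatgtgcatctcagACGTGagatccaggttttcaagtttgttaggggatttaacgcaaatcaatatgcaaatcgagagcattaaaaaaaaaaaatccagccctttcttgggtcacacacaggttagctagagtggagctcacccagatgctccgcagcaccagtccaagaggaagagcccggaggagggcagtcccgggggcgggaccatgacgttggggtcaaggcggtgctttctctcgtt
The letters stood once in the windows of Hilpda and Egln3 and not in that of Il1a. The window before the other start of Hilpda did not hold them. Among the 20 measured genes of the list with a promoter in the table, 11 held them (55%), and among the 15 of these that were higher, 8 did (53.3%). Of all genes measured with a promoter, 2186 of 8996 held them (24.3%), and of all 32851 windows 16.6%. A match of letters does not show that a factor binds there.

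Most genes of glycolysis were higher. Of 19 genes, 13 were higher without overlap (68.4%, against 27.1% of all genes) and 4 lower, with a median of 0.63, and 1.27 for TAN 3 alone. Pfkl, a phosphofructokinase, had 12.10, 12.23, 12.28 and 12.30 in TAN 1 to TAN 4, against 9.55, 9.28, 9.32 and 9.62 in G-MDSC 1 to G-MDSC 4. Hk2, the inducible hexokinase, had 13.46, 13.48, 13.13 and 13.59 in TAN 1 to TAN 4, against 10.91, 11.02, 11.12 and 11.28 in G-MDSC 1 to G-MDSC 4. Slc2a1, the glucose transporter GLUT1, was higher by 2.03 and Ldha, lactate dehydrogenase, by 1.66, while Hk1, the constitutive hexokinase, fell by 1.68 and Slc2a3, the transporter GLUT3, by 0.87. Hk1 was not called for TAN 3 alone. Tpi1 was higher by 3.11, with 1 other probe called lower.

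Of 28 genes of lipid handling, 15 were higher (53.6%, against 36.4% of all genes) and 7 lower (25%, against 22.6%). Beside Hilpda and Ch25h, Pltp, a phospholipid transfer protein, was higher by 3.26, with 1 other probe called lower, and Npc2, which moves cholesterol out of lysosomes, by 1.95. Apoe, apolipoprotein E of macrophages, had 10.94, 11.54, 13.65 and 12.70 in TAN 1 to TAN 4, against 9.94, 10.58, 10.51 and 10.27 in G-MDSC 1 to G-MDSC 4, highest in TAN 3, and was not called with the level as a block (1.26). Abcg1, a cholesterol exporter, fell by 1.52, and was not called for TAN 3 alone. Plin2, a coat protein of lipid droplets, had 6.96, 7.00, 10.96 and 7.72 in TAN 1 to TAN 4, against 10.30, 10.08, 10.25 and 10.41 in G-MDSC 1 to G-MDSC 4, with TAN 3 above every G-MDSC. It was called higher for TAN 3 alone and was not called with the level as a block. Of 42 lysosomal genes, 26 were higher (61.9%, against 36.4% of all genes), 25 of them without overlap, and 6 lower (14.3%, against 22.6%). Ctsk, cathepsin K, had 12.60, 12.59, 12.40 and 12.98 in TAN 1 to TAN 4, against 8.04, 7.40, 7.33 and 7.56 in G-MDSC 1 to G-MDSC 4, and Ctsz, cathepsin Z, had 13.60, 13.76, 13.47 and 14.06 in TAN 1 to TAN 4, against 10.87, 10.38, 10.44 and 10.80 in G-MDSC 1 to G-MDSC 4. Glb1, the lysosomal galactosidase, was higher by 2.50, while Tfeb, a factor that turns on lysosomal genes, fell by 1.21.

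Of 16 genes of arginine and nitric oxide, 9 were higher (56.2%, against 36.4% of all genes) and 4 lower (25%, against 22.6%). Beside Arg1, Ass1, which remakes arginine from citrulline, had 10.77, 10.88, 10.10 and 10.35 in TAN 1 to TAN 4, against 8.80, 7.36, 7.35 and 8.15 in G-MDSC 1 to G-MDSC 4, and Srm, spermidine synthase, had 11.30, 11.30, 10.69 and 11.70 in TAN 1 to TAN 4, against 9.15, 7.88, 7.70 and 8.34 in G-MDSC 1 to G-MDSC 4. Nos2, the inducible nitric oxide synthase, had 6.33 to 6.92 in TAN and 6.53 to 6.67 in G-MDSC and was not called. Of 24 genes of iron and heme, 12 were higher (50%, against 36.4% of all genes) and 7 lower (29.2%, against 22.6%). Mt1, a metallothionein, had 15.38, 15.25, 13.92 and 15.62 in TAN 1 to TAN 4, against 12.52, 10.85, 10.77 and 11.12 in G-MDSC 1 to G-MDSC 4, and Cd163, the hemoglobin scavenger receptor of macrophages, was higher by 1.63. Slc40a1, the iron exporter ferroportin, fell by 1.96.

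Of 29 antioxidant genes, 12 were higher (41.4%, against 36.4% of all genes) and 9 lower (31%, against 22.6%). Prdx4 and Prdx2, peroxiredoxins, were higher by 2.67 and 2.24, while Gpx4, which repairs oxidized lipids, fell by 1.84 and Mgst1, a microsomal glutathione transferase, by 2.13. Of 17 genes of prostaglandins and leukotrienes, 6 were higher (35.3%, against 36.4% of all genes) and 5 lower (29.4%, against 22.6%). Ptgs2, the inducible cyclooxygenase, had 9.93, 10.10, 10.12 and 9.49 in TAN 1 to TAN 4, against 9.40, 8.20, 8.53 and 8.34 in G-MDSC 1 to G-MDSC 4, and Tbxas1, thromboxane synthase, was higher by 1.85. Alox5ap, which presents arachidonic acid to 5-lipoxygenase, fell by 0.58.

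Most genes of energy supply and protein turnover were higher. Of 66 genes of the respiratory chain, 43 were higher (65.2%, against 36.4% of all genes), 34 of them without overlap, and 7 lower, with a median of 0.68. With TAN 3 as the only TAN array 27 of the 66 were higher, in a fit that called 19.2% of all genes higher, and the median was 0.38. Atp5g1, a ring subunit of the ATP synthase, had 12.81, 12.75, 12.20 and 12.86 in TAN 1 to TAN 4, against 10.60, 10.07, 10.05 and 10.51 in G-MDSC 1 to G-MDSC 4. Ndufv1, a subunit of complex I, had 12.12, 12.09, 11.55 and 12.05 in TAN 1 to TAN 4, against 10.75, 10.36, 10.41 and 10.36 in G-MDSC 1 to G-MDSC 4, with G-MDSC 1 above the other G-MDSC and TAN 3 below the other TAN. Of 28 genes of the constitutive proteasome, 20 were higher (71.4%, against 36.4% of all genes) and 3 lower. The median was 0.57, and 0.40 with TAN 3 alone. With the level as a block 15 were higher, against 20.8% of all genes. Psmb6, a catalytic subunit, had 12.16 to 12.42 in TAN and 10.96 to 11.04 in G-MDSC, and Psmc3, an ATPase of the cap, had 10.73 to 11.09 in TAN and 9.47 to 9.91 in G-MDSC.

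Of 54 cytosolic ribosomal proteins, 25 were higher (46.3%, against 36.4% of all genes), 12 of them without overlap. Another 6 were lower (11.1%, against 22.6%), all 6 with overlap. Rpl19 was higher by 1.55, Rplp0 by 1.5 and Rpl13a by 1.37. Rps7 had 8.17, 8.29, 14.29 and 9.01 in TAN 1 to TAN 4, against 13.99, 13.42, 13.47 and 13.51 in G-MDSC 1 to G-MDSC 4, Rps6 had 8.03, 8.01, 13.32 and 8.20 in TAN 1 to TAN 4, against 12.78, 12.21, 12.22 and 12.36 in G-MDSC 1 to G-MDSC 4 and Rps2 had 7.97, 7.89, 13.49 and 7.97 in TAN 1 to TAN 4, against 12.32, 11.77, 11.83 and 12.06 in G-MDSC 1 to G-MDSC 4. In these last 3, TAN 1, TAN 2 and TAN 4 were low and TAN 3 lay above every G-MDSC, so that all 3 were called lower over all TAN and higher for TAN 3 alone, and none of them was called with the level as a block. Of 38 splicing factors, 13 were higher (34.2%, against 36.4% of all genes) and 12 lower (31.6%, against 22.6%). Snrpd2, a core protein of spliceosomal particles, was higher by 1.77, while Hnrnpk fell by 2.81 and Snrnp70 fell by 2.65. Hnrnpk was not called with the level as a block (-1.42). Of 25 genes of stress in the endoplasmic reticulum and of heat shock, 13 were higher (52%, against 36.4% of all genes) and 5 lower (20%, against 22.6%). Hspa1a, the inducible chaperone, had 12.02, 11.86, 12.52 and 13.12 in TAN 1 to TAN 4, against 10.74, 8.73, 8.83 and 9.30 in G-MDSC 1 to G-MDSC 4, and Atf4, the factor of the integrated stress response, fell by 1.60, and was not called for TAN 3 alone.

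**Figure D4:**
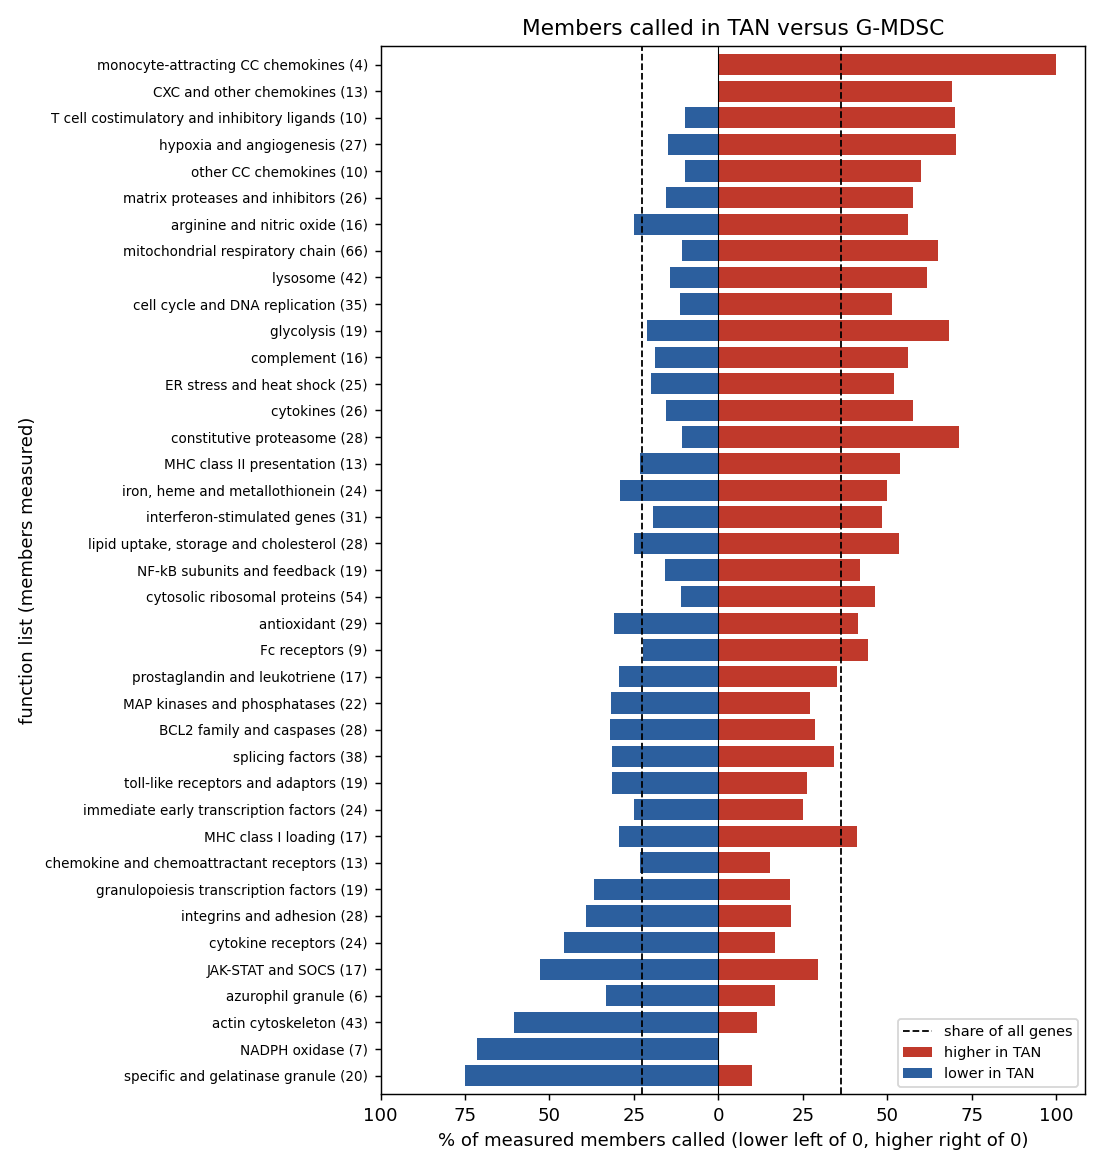
Percentage of the measured members of each of 39 function lists called higher (red, right of 0) or lower (blue, left of 0) in TAN versus G-MDSC, ordered by the median difference, with the number measured in brackets. Dashed lines mark the shares over all genes, 36.4% higher and 22.6% lower; monocyte-attracting chemokines stand at the top (100% higher) and specific and gelatinase granule genes at the bottom (75% lower).

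Of 35 genes of the cell cycle and DNA replication, 18 were higher (51.4%, against 36.4% of all genes) and 4 lower, with a median of 0.65. Cdkn1a, the cell cycle inhibitor p21, had 13.99, 14.19, 13.83 and 14.07 in TAN 1 to TAN 4, against 11.55, 9.17, 9.59 and 9.64 in G-MDSC 1 to G-MDSC 4, a difference of 4.03 (standard error 0.36). Ccnd1, cyclin D1, had 11.83, 11.74, 11.45 and 12.02 in TAN 1 to TAN 4, against 8.26, 8.72, 8.88 and 9.51 in G-MDSC 1 to G-MDSC 4, and E2f1, which drives entry into DNA synthesis, was higher by 2.51. Cdkn2d, an inhibitor of cyclin D kinases, had 8.97, 8.96, 10.81 and 9.05 in TAN 1 to TAN 4, against 11.73, 12.63, 12.57 and 12.32 in G-MDSC 1 to G-MDSC 4. Cdkn1b, the inhibitor p27, fell by 1.12, but its difference was 0.12 once the background level was blocked. Of 28 genes of the BCL2 family and caspases, 8 were higher (28.6%, against 36.4% of all genes) and 9 lower (32.1%, against 22.6%). Mcl1, on which neutrophils depend for survival, had 14.24 to 14.49 in TAN and 14.40 to 14.52 in G-MDSC and was not called. Bok was not above background in G-MDSC, and was at least 2.91-fold higher, while Bid fell by 1.83 and Pmaip1, the BH3-only protein Noxa, by 2.50. Bcl2l1, the gene of BCL-XL, fell by 1.84, with 2 other probes called higher, and was not called for TAN 3 alone.

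Of 19 transcription factors of granulopoiesis, 4 were higher (21.1%, against 36.4% of all genes) and 7 lower (36.8%, against 22.6%), all 7 without overlap. Cebpe, which turns on the specific granule genes in the marrow, had 8.22, 8.61, 8.57 and 8.43 in TAN 1 to TAN 4, against 11.15, 10.35, 10.28 and 10.62 in G-MDSC 1 to G-MDSC 4. Spi1, the myeloid factor PU.1, had 9.37, 9.38, 11.88 and 10.30 in TAN 1 to TAN 4, against 12.26, 12.36, 12.50 and 12.64 in G-MDSC 1 to G-MDSC 4, with TAN 3 nearest to the G-MDSC. Ets1, a factor of lymphocytes and other cells, fell by 2.97, and was highest in G-MDSC 1 (12.19). Runx1, a factor of blood cell development, was higher by 1.13. Lists with the largest medians kept their sign with TAN 3 alone. The monocyte-attracting chemokines had 7.14 over all TAN and 7.27 with TAN 3 alone, the CXC chemokines 2.09 and 2.41, and the specific and gelatinase granule -2.09 and -1.25. Class I loading changed side, with -0.15 over all TAN and 0.82 with TAN 3 alone.

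**Figure D5:**
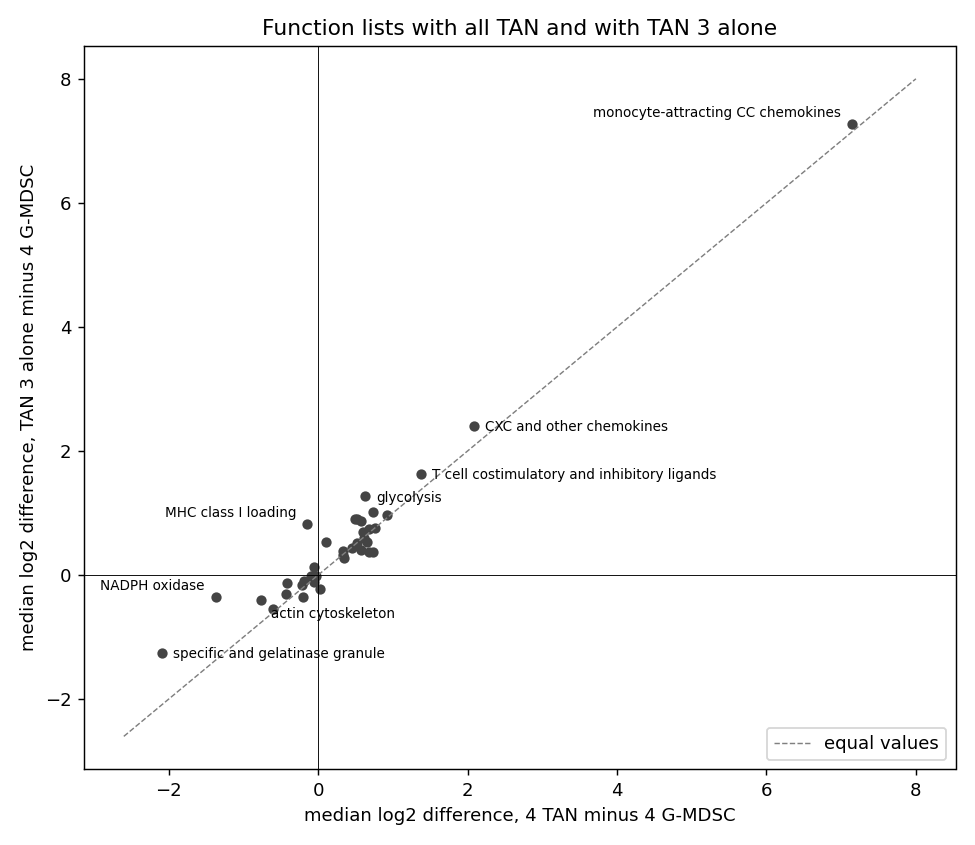
Median log2 difference of each of 39 function lists with all 4 TAN (horizontal axis) and with TAN 3 as the only TAN array (vertical axis), both minus the 4 G-MDSC, with a dashed line at equal values. Chemokine lists lie near the line (7.14 and 7.27 for monocyte-attracting chemokines), whereas class I loading lies on the other side of 0 (-0.15 and 0.82).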

How the data were processed

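RNA of TAN (4 arrays), G-MDSC (4) and NN (7) was measured on 1-colour Illumina mouse bead arrays of 25697 probes. The deposited array files hold the signal intensity of each probe, which the authors summarized with Bead Studio, neither background subtracted nor normalized. The deposited table of normalized values holds the intensity of 16322 probes, which the authors quantile normalized and filtered on detection and on a 1.2-fold ratio between arrays. It was used for this filter and as an alternative. Intensities have no count behind them, and the number of arrays limits the precision.

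Here, background was taken off by normexp (limma, offset 50), the signals were quantile normalized, and 16317 probes of that table that met the 1.2-fold ratio here were kept (5 were left out). All 15 arrays entered a limma model (version 3.58.1 in R 4.3.3) with a mean per group, and the contrast TAN minus G-MDSC was adjusted by Benjamini-Hochberg over the kept probes. The same contrast with each probe's own spread in place of limma's was an alternative. The methods' analysis of variance and its post hoc test were not repeated. Names came from GEO's platform annotation: 15321 kept probes had 1 symbol, 996 had none or several, and 11074 genes were named. Above background means a signal higher than the 95th percentile of 9375 probes left out of the authors' table, on that array. A bound sets the mean of the higher group against, on each array of the other, the larger of its own signal and the lowest signal above background.

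There were 39 function lists and 11 marker lists, with 1019 of 1248 entries measured, and the members and lists were chosen with earlier results of these data known. Genes named were the 15 furthest apart each way (called with and without TAN 3 and G-MDSC 1, no overlap, above background, no other probe called the other way), the 3 furthest apart each way in each list with members on whose role a list turns, and the 10 largest bounds each way. Other members named in lists were picked after their values were seen. The fit was tested on simulated data. Alternatives changed the background correction, normalization, filter, arrays, weights and blocks. Whether the replicate numbers of the titles pair the arrays could not be decided, and the main fit did not pair them.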

Additional observations from a re-analysis of the deposited data

Results flagged for a closer look

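In each group of 4 arrays, the highest or lowest array was looked at where its gap to the nearest other array took up more of the group's range than Dixon's critical value allows. Of 648 groups looked at (named genes and list means, in TAN and in G-MDSC), 102 met this, 15.7%, where chance gives about 1 in 20. TAN 3 held 51 and G-MDSC 1 held 39. Values are log2 signals, and no cause was tested.

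TAN 3 lay above the other TAN in 32 genes. Among genes of granules, adhesion and the cytoskeleton it had 11.36 for Ngp, 7.31 for Itgam, 9.85 for Itgb2, 11.93 for Lcp1 and 9.26 for Msn. Among genes of immunity it had 12.54 for Cxcl10, 12.38 for Ltb, 10.07 for Ifngr1, 8.77 for Il17ra, 12.00 for Tlr4, 13.07 for Trem1, 9.06 for Trim21 and 10.88 for Oas3. Among genes of antigen presentation it had 8.39 for H2-DMb2, 7.58 for H2-Oa, 11.50 for H2-Q8, 12.04 for Gm8909, 9.98 for Psme2 and 8.17 for Tapbp. It had 13.49 for Rps2, 13.32 for Rps6 and 14.29 for Rps7, ribosomal proteins. The others were AB124611 (10.86), Atp5pb (9.62), Cdkn2d (10.81), Ctsa (6.45), H2az1 (12.13), Hk1 (7.85), Jund (10.75), Mgst1 (12.18), Rbm3 (11.03) and Srsf5 (10.20).

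TAN 3 lay below the other TAN in 12 genes. It had 9.39 for the chemokine Ccl17, 10.59 for Cd86, 15.36 for Ier3, 8.59 for Ikbkg and 8.45 for Ltc4s. It had 11.55 for Ndufv1 and 11.87 for Ndufv3 of the respiratory chain, and 10.53 for Psmc5 of the proteasome. It had 8.06 for Bcl2l2, 11.51 for Lmna, 11.63 for Snrpd2 and 14.38 for Tpi1. Of the lists, its mean was the highest TAN value for cytokines (10.25), specific and gelatinase granule (11.37), matrix proteases and inhibitors (10.17), complement (9.03), iron, heme and metallothionein (10.10) and antioxidant genes (9.92), and the lowest for eosinophil and mast cell markers (6.32).

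G-MDSC 1 lay above the other G-MDSC in 16 genes. Genes of lymphocytes were among them, with 12.57 for Cd79a, 10.38 for Fcer2a, 11.53 for Mzb1, 11.05 for Pou2af1 and 12.19 for Ets1. It had 14.75 for Ccl4, 14.70 for Cxcl2, 14.54 for Tlr2 and 14.19 for Il1r2. The others were Cd81 (12.13), Hilpda (11.32), Krt18 (6.63), Lmna (9.61), Ndufv1 (10.75), Ndufv3 (11.24) and Rps7 (13.99). It lay below in 14 genes, with 14.99 for Csf3r, 15.16 for Fpr2, 10.71 for Il17ra, 10.32 for Itgb2, 12.79 for Lcp1 and 11.14 for Pxn. The others were Asl (6.55), Ctsa (7.04), H2-Q8 (11.97), H2az1 (12.19), Hpgd (7.95), R3hdm4 (7.63), Sesn2 (8.92) and Slc28a2 (7.47). Of the lists, its mean was the highest G-MDSC value for hypoxia and angiogenesis (8.55), ER stress and heat shock (10.01), the respiratory chain (10.88), B cell (10.24), T and NK cell (9.38) and fibroblast and matrix markers (6.97), and the lowest for cytokine receptors (10.17), the actin cytoskeleton (11.51) and macrophage markers (9.19).

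The other 6 arrays held 12 cases in all, none of them in G-MDSC 3. G-MDSC 4 was the highest G-MDSC for Blvra (9.63), Ccl9 (11.95), Cybc1 (12.09), Mmp13 (7.43), Socs2 (8.12) and the glycolysis list (10.79). G-MDSC 2 was the lowest for Ier3 (14.35) and Junb was 15.81 there, also the lowest. Among TAN, TAN 1 was the highest for Cd79a (7.28) and the lowest for Psmb6 (12.16), TAN 2 was the lowest for Pou2af1 (6.23) and TAN 4 the highest for Cd276 (9.08).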

How the results depend on the processing

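Of 9598 probes called, 5235 higher and 4363 lower in TAN, the counts stayed within 1.5 times under most alternatives. With the background level as a block they were 5419, 2955 and 2464, and with TAN 3 as the only TAN array 5610, 2841 and 2769, where the spread of that lone array is assumed to be like that of the other groups. With the median of left-out probes subtracted, the probes over 1.7-fold were 8323, 4386 higher and 3937 lower, against 5253, 2639 and 2614. Leaving out each array in turn gave 8678 to 10587 called (4689 to 5927 higher, 3924 to 4660 lower) and 4933 to 5996 over 1.7-fold (2472 to 3129 higher, 2461 to 2867 lower). With the replicate number as a block 9295 were called (5064 higher, 4231 lower). Same-numbered arrays had correlations of 0.16, 0.02, 0.22 and -0.14 in their deviations from the group means. Deviations within a group of 4 depend on each other, so that these values cannot decide whether the number pairs the arrays. The cause of the block's effect was not tested. Scaling each array to its median moved the median difference over probes to 0.21, against 0.05, and made 6131 probes higher and 3504 lower, so that small differences are relative to this shift. With each probe's own spread in place of limma's, the same contrast called 10251 probes unadjusted and 9491 after Benjamini-Hochberg.

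Of 274 genes named or considered, 226 were counted as unchanged in sign and call with the level as a block. A gene not called over all arrays was counted so even where its sign turned. Among genes called over all arrays, the sign turned with TAN 3 alone in Adam8 (0.10), H2-T23 (0.51), Lgals9 (0.56), Nfkbia (0.77), Plin2 (0.70), Psmd11 (0.02), Psme2 (1.26), Rps2 (1.49), Rps6 (0.93), Rps7 (0.70) and Trem1 (0.36). Among genes not called, it also turned in Ccl5 (-0.18) and Tlr2 (0.27), to name some. With the level as a block the sign turned in Arhgap45 (-0.31) and Cdkn1b (0.12) among genes called. Among genes not called, it turned in Tnf (-0.31), C1qa (-0.08) and Cd74 (-0.12), to name some. The cause was not tested. Of 100 counts of list members called higher or lower, 45 moved by more than 1.5 times with the level as a block. That fit called 34.5% of all genes, against 59% without the block. Genes not above background on any array of a group have only a bound.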

Other observations

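The lists of further cell types moved in both directions. Of 9 platelet and megakaryocyte markers, 4 were higher in TAN (44.4%, against 36.4% of all genes) and none lower. Pf4 was the furthest apart (5.57), and Treml1, a receptor of platelets, was higher by 0.86 but not called for TAN 3 alone. Of 7 erythroid markers, 1 was higher (14.3%, against 36.4% of all genes) and 3 lower (42.9%, against 22.6%). Among the lower was Slc4a1, the anion exchanger of red cells, which was not above background in TAN and at least 1.77-fold lower. Of 8 eosinophil and mast cell markers, 1 was higher (12.5%, against 36.4% of all genes) and 3 were lower (37.5%, against 22.6%). The higher one was Il5ra, the interleukin-5 receptor (0.70, not called for TAN 3 alone). Of 10 endothelial markers, 2 were higher (20%, against 36.4% of all genes) and 1 lower (10%, against 22.6%). Eng, endoglin, was higher by 1.10, and 2.40 with TAN 3 alone, and Pecam1 fell by 1.30, with -0.07 for TAN 3 alone, not called. These genes were picked after their values were seen.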
